A study of Rattus norvegicus with 6 samples.

Results

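The endothelial genes described here are 10 markers of the cells that line blood vessels: Pecam1, Cdh5, Emcn, Vwf, Fabp4, Nos3, Icam1, Vcam1, Sele and Selp. They were taken as every non-control probe of the arrays whose gene name is one of these symbols, which gave 14 probes of 30367 and 10 genes of 17536 tested. Whole hearts of rats given AACO, a Chinese medicine formula studied in chronic heart failure, were compared with hearts of rats given water, with 3 arrays per group. Fabp4, a fatty acid carrier of capillary endothelium, was 1.58-fold lower with AACO and was the only member past the test. The other members moved by smaller amounts or varied more between hearts of the same group. For Vwf, 1 probe was far higher with AACO, while that gene's other probes differed little between the groups.

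Both groups had TAC, per the series text. These letters commonly stand for transverse aortic constriction, a surgical narrowing of the aorta that overloads the heart. Each experiment used its own donors. The AACO group received a solution of 0.386 µg/g once a day for 8 weeks. The control group received the same amount of double-distilled water, and hearts were taken 24 h after the final dose of either. The labels name the species as Rattus norvegicus while the series text speaks of mice. The probe coordinates in the array files belong to a rat build, rn4, and the animals were taken to be rats. The animals' ages and strain are not given in the sources used here, and nothing in the files checks the unit of the dose. All 3 AACO arrays lay on 1 slide and all 3 control arrays on another, so slide and treatment cannot be told apart. The sources used here do not say whether an array holds 1 animal, and a heart below means the sample on 1 array. SEs, intervals and p-values cover only the spread between these 6 samples. Limma draws the variance of each gene toward that of all genes or probes fitted, so an SE can differ from a gene's own spread.

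Endothelial cells form the inner wall of every vessel and hold together through junction proteins such as VE-cadherin and PECAM-1. At rest they make nitric oxide, pass fatty acids from blood to muscle and store von Willebrand factor and P-selectin in granules called Weibel-Palade bodies. When inflammatory signals reach them, NF-kappaB raises E-selectin, ICAM-1 and VCAM-1 on their surface, and white blood cells roll, stick and cross. Whole heart RNA mixes these cells with muscle, connective tissue and blood, so fewer endothelial cells and less RNA per endothelial cell cannot be told apart.

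The probes that carry the results are printed so that their identity is plain. The first pair detected the members with the lowest adjusted p, Fabp4 (rn4 chr2:93536175-93538589, a span that crosses a gap, as the 60-base probe is shorter) and Cdh5 (rn4 chr19:779665-779724, minus strand).
Fabp4: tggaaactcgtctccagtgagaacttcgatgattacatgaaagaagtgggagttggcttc
Cdh5: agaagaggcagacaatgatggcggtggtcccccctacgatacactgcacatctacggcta
The next pair contrasts a probe near the end of the Vwf transcript (rn4 chr4:161854554-161854613) with one near its start (rn4 chr4:161738186-161738245), of which bases 1 to 30 are shown. Capitals in the upstream probe mark a run of AC repeats, which the results on Vwf return to.
Vwf downstream: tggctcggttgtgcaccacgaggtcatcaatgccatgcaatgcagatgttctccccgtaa
Vwf upstream: aACACACACACACttaaatatgacgtacac
The last pair shows 30 bases shared in place by the probes of Selp (rn4 chr13:79922082-79922141 and chr13:79922078-79922137), with capitals where their letters differ.
Selp first probe: ggAaaggtcctcTtttcgTtattttgTTcT
Selp second probe: ggGaaggtcctcCtttcgGtattttgGAcC
Over the 56 bases that both Selp probes cover, 8 bases differed, 6 of them in the stretch printed. No rn4 annotation was used here, so exon or untranslated position is not given.

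Levels below are log2 of a probe's processed signal relative to the 75th percentile of its array, so 0 is the level of that percentile and a difference of 1 is 2-fold. Between 66.0% and 72.4% of non-control spots were well above background, with the AACO arrays at 70.9% or more and the control arrays at 68.7% or less. No spot was saturated. Over all genes, limma called 11.3% at an adjusted p under 0.05, with 1108 genes higher and 867 lower with AACO. That split moved to 774 and 1529 after normexp background correction, to 5493 and 232 without scaling, to 1136 and 505 with spike-in scaling and to 776 and 1401 without a filter on dim probes. The cardiac label was met by the cardiomyocyte markers Actc1 and Myl2, whose levels averaged 7.59 and 7.15 on the AACO arrays and 7.81 and 7.29 on the control arrays. Of the 8 cardiomyocyte markers tested, 3 were lower in mean with AACO, and their median difference was 0.08.

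All 10 members were tested, and 9 of them were well above background on all 6 arrays. None was called higher and 1, Fabp4, was called lower, against 6.32% called higher and 4.94% called lower over all genes. The mean was lower with AACO for 7 members, but without scaling for only 1, as that setting moved the median of all genes from 0.04 to 0.52; 7 members stood below the median of all genes in both. The median log2 difference of the members was -0.15. Groups that did not overlap were seen for Pecam1, Cdh5 and Fabp4, all lower with AACO, where 15.9% of all genes were lower without overlap and 37.4% did not overlap in either direction. For 7 members the 95% interval of the difference lay between -1 and 1 on the log2 scale, so a change of more than 2-fold was outside it; the exceptions were Fabp4, Vcam1 and Selp.

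**Figure D1:**
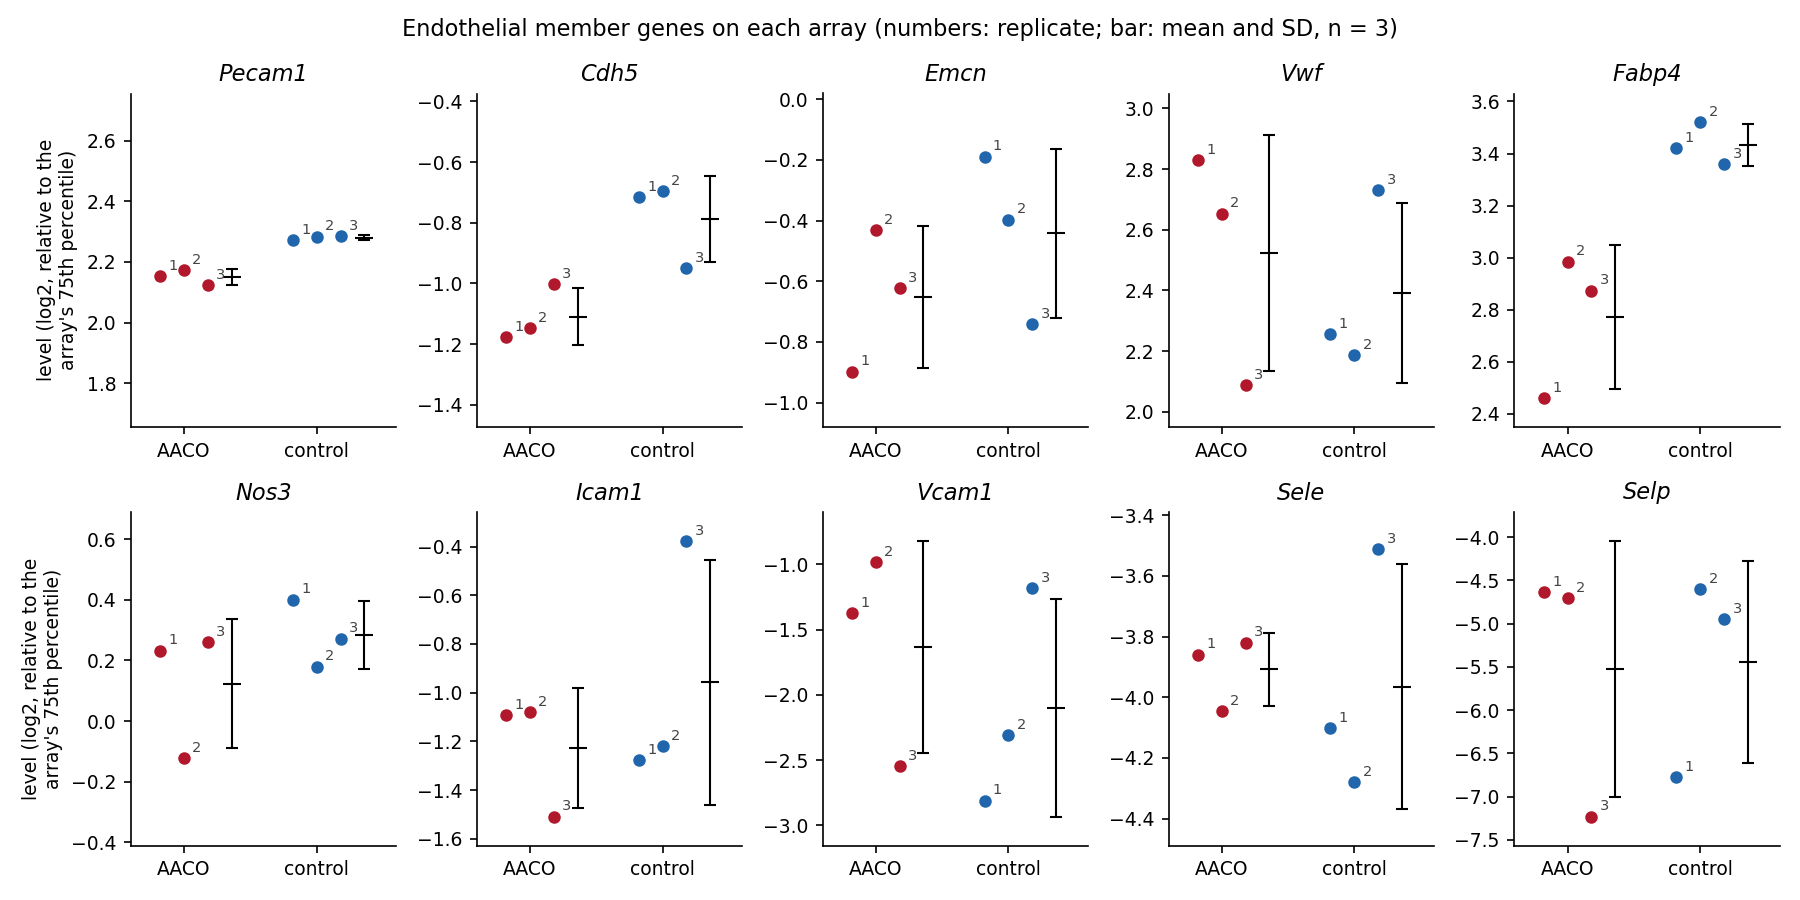
Level of each member on each array (log2, relative to the array's 75th percentile), with replicate numbers beside the points and the mean ± SD (n = 3) as a black bar; each panel has its own axis. The AACO points lie below all control points for Pecam1, Cdh5 and Fabp4, and the groups overlap for the other 7 members.

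**Figure D2:**
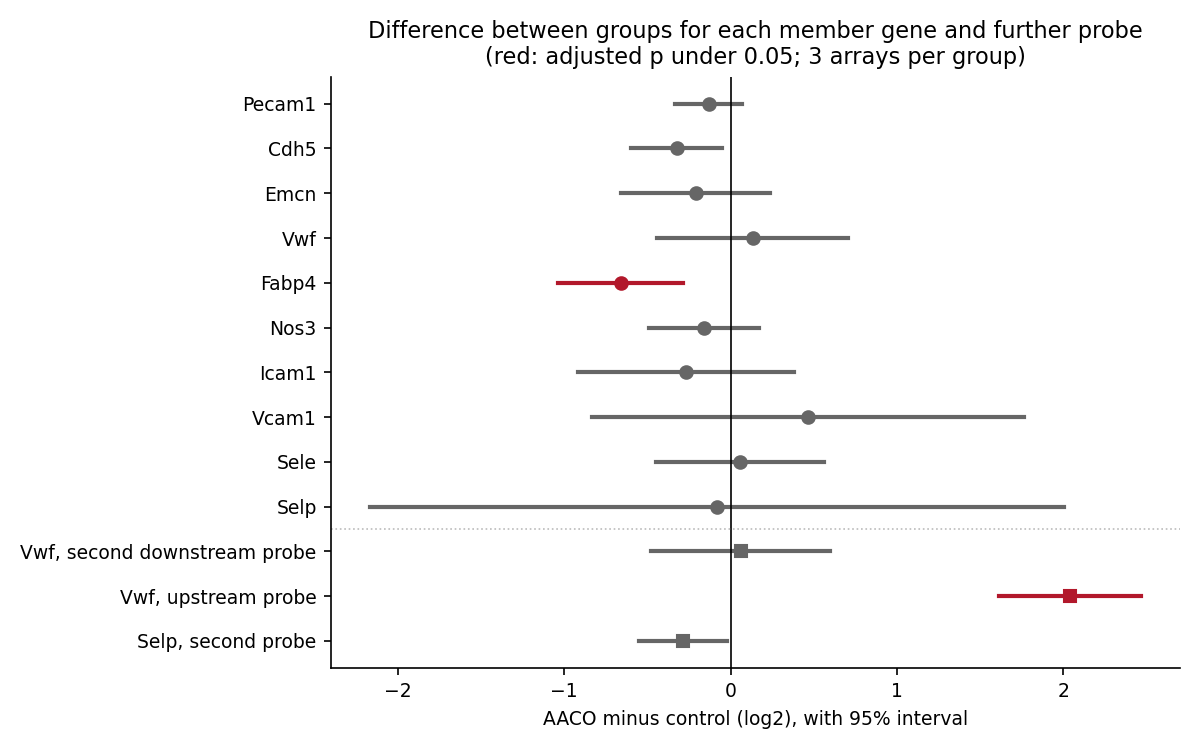
AACO minus control (log2) with its 95% interval for each member's probe (circles) and for the members' further probes (squares), red where the adjusted p was under 0.05. Fabp4 is the red circle at -0.66 and the upstream Vwf probe the red square at 2.04, and the widest interval is that of Selp; without scaling, the points of 6 members move from below to above 0.

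Pecam1 encodes CD31, an immunoglobulin-family protein at the contacts between endothelial cells that platelets and leukocytes also carry. Its level was 2.15, 2.17 and 2.12 on AACO arrays 1, 2 and 3, and 2.27, 2.28 and 2.29 on control arrays 1, 2 and 3. All control hearts stood above all AACO hearts, within a total range of 0.16. The difference was -0.13 ± 0.08 (SE), with a 95% interval of -0.33 to 0.07 and an adjusted p of 0.335 by limma. The SD between hearts was 0.026 with AACO and 0.0074 in control, so this SE owes much to the spread of other genes. The probe lies at rn4 chr10:96056219-96056278 on the minus strand, and its 2 spots per array differed by an SD of at most 0.10.

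Cdh5 encodes VE-cadherin, the cadherin of endothelial adherens junctions. Its level was -1.18, -1.15 and -1.00 on the AACO arrays and -0.72, -0.70 and -0.95 on the control arrays. The groups did not overlap, and the hearts nearest to each other across them were AACO 3 and control 3. The difference was -0.32 ± 0.11 (SE), and limma gave an unadjusted p of 0.028 and an adjusted p of 0.116. The 95% interval, -0.60 to -0.05, was unadjusted and lay below 0. In the alternatives the difference ran from -0.40 without control replicate 3 to 0.16 without scaling, and no alternative called it.

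Emcn encodes endomucin, a mucin on the surface of capillary and venous endothelium. Its level was -0.90, -0.43 and -0.62 on the AACO arrays and -0.19, -0.40 and -0.74 on the control arrays (rn4 chr2:234958254-234958549). The highest heart was control 1 and the lowest AACO 1, with the other hearts of both groups between them. The probe's 2 spots per array differed by an SD of 0.05 to 0.41. The SD between hearts was 0.23 with AACO and 0.28 in control, so the order of the hearts is uncertain. The difference of -0.21 ± 0.19 (SE) had a 95% interval of -0.66 to 0.24 and an adjusted p of 0.483 by limma.

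Among 27 other endothelial identity genes tested of 30 listed, limma called 4 lower and none higher, and 21 were lower in mean. The 4 were Tmem100, a membrane protein of arterial endothelium (-1.08 ± 0.16 SE, adjusted p 0.015), S1pr1, the sphingosine 1-phosphate receptor (-0.94), Ramp2, a partner of the adrenomedullin receptor (-0.85), and Icam2, a constitutive ligand of leukocyte integrins (-0.84). Tmem100 stood at -2.70, -2.44 and -2.73 on the AACO arrays and -1.63, -1.74 and -1.27 on the control arrays. Ramp2 stood at 0.05, 0.12 and 0.39 against 0.86, 1.06 and 1.20. In both genes, and in S1pr1 and Icam2, every AACO heart lay below every control heart. Of all genes, 15.9% were lower without overlap. Calls and overlap rest on the same arrays, so lack of overlap in a called gene adds no support, here or below. The VEGF receptor Kdr (-0.36, adjusted p 0.0895) and the angiopoietin receptor Tek (-0.35, adjusted p 0.133) were not called. Plvap, a protein of the diaphragms of fenestrated capillaries, had the largest positive difference of the list, 1.86 with a 95% interval of -0.40 to 4.12. The median of the list was -0.31, against 0.04 over all genes, and 0.18 against 0.52 without scaling.

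Of 19 endothelial transcription factors tested, 1 was called higher, 2 lower and 16 not at all, with a list median of -0.15. Hey2, a Notch target of arterial endothelium that heart muscle also expresses, rose by 1.22 ± 0.19 (SE, adjusted p 0.0165 by limma). It stood at -0.85, -0.38 and -0.86 on the AACO arrays and at -2.01, -1.64 and -2.11 on the control arrays, without overlap. Lmo2 (-0.55, adjusted p 0.0329) and Gata2 (-0.54, adjusted p 0.0416), partners in blood and endothelial gene control, fell. Of 12 genes that mark arterial, venous, endocardial or lymphatic endothelium, 1 fell, the hyaluronan receptor Lyve1 (-1.33, adjusted p 0.0345). Lyve1 is carried by lymphatic vessels and by resident macrophages. The other lymphatic markers tested, Pdpn, Ccl21, Prox1, Flt4 and Mmrn1, were not called, and Sema3g had the next smallest p of that list (-0.36, adjusted p 0.136).

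Fabp4 binds fatty acids in capillary endothelium, and adipocytes and macrophages also make it. Its level was 2.46, 2.98 and 2.87 on the AACO arrays and 3.42, 3.52 and 3.36 on the control arrays. The control hearts lay close together and above all AACO hearts, of which AACO 1 was lowest. The difference was -0.66 ± 0.16 (SE), 63.3% of the control level, with a 95% interval of -1.03 to -0.29. Limma's adjusted p of 0.0464 was near the threshold, and leaving out any of the 6 arrays moved it above, to between 0.0634 and 0.105. The direction held in all 20 alternatives, from -0.77 to -0.17, and 9 of them called it.

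Markers of the other cells that hold Fabp4 were read on the same arrays. Of 11 adipocyte markers, 4 passed the filter on dim probes, and Plin1, Lep, Cidec, Retn, Plin4, Adrb3 and Ucp1 did not. Adipoq, the defining adipocyte hormone, stood at -2.97 on AACO 2 and between -7.76 and -6.36 on the other 5 arrays. Lipe was called lower (-0.62, adjusted p 0.0214), and the summed linear level of the adipocyte markers, in multiples of the array's 75th percentile, was 15.6 to 19.1 with AACO and 17.4 to 18.3 in control. Nearly all of that sum came from Cidea, at a mean level of 4.03 with AACO and 3.97 in control. Cfd was lower by -0.97 and was not called (adjusted p 0.115), and the median of the 4 was -0.28. Of 12 macrophage markers 9 were called lower, among them Mrc1, the mannose receptor (-2.45, adjusted p 0.00697), and their summed level was 14.9 to 16.1 with AACO and 24.9 to 37.2 in control. Their part in the Fabp4 result was not tested.

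The endothelial handling of blood lipids was read from 10 genes. Gpihbp1, which anchors lipoprotein lipase in the capillary wall, fell by 0.90 on the log2 scale (adjusted p 0.0105 by limma). It stood at 1.75, 1.90 and 2.01 on the AACO arrays and 2.87, 2.81 and 2.68 on the control arrays, without overlap. Cd36, a fatty acid transporter of capillaries and muscle, was lower by -0.43 and missed the threshold (adjusted p 0.0721). The remaining 8 were not called, and the list median was -0.21 (0.28 without scaling, where all genes had 0.52).

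Nos3 encodes endothelial nitric oxide synthase, whose product relaxes smooth muscle. Its level was 0.23, -0.12 and 0.26 on the AACO arrays and 0.40, 0.18 and 0.27 on the control arrays (rn4 chr4:6159286-6159345, minus strand). AACO 2 was lowest, and the other hearts of both groups lay between 0.18 and 0.40. The difference was -0.16 ± 0.14 (SE), with a 95% interval of -0.49 to 0.17 and an adjusted p of 0.465 by limma. The array carries this probe on 10 spots, which differed by an SD of 0.05 to 0.08 within an array; the SD between AACO hearts was 0.21.

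In the nitric oxide pathway, 15 genes were tested, of which 1 was called higher and 2 lower. Gch1, the first enzyme in the synthesis of the cofactor tetrahydrobiopterin, fell by 1.61 on the log2 scale (adjusted p 0.0312), from a control mean of -1.77 to an AACO mean of -3.39. Slc7a1, a transporter of the substrate arginine, fell by 1.31 (adjusted p 0.027). Gucy1a1, a subunit of the soluble guanylate cyclase that senses nitric oxide, rose by 0.78 (adjusted p 0.0271) and stood at -1.77, -1.74 and -2.15 with AACO and -2.63, -2.55 and -2.80 in control. None of these 3 called genes overlapped between groups, where 37.4% of all genes did not overlap, and the list median was 0.07.

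Vwf encodes von Willebrand factor, which endothelial cells store and which tethers platelets to a damaged wall. At its probe of highest signal (rn4 chr4:161854702-161854759) the level was 2.83, 2.65 and 2.09 on the AACO arrays and 2.26, 2.19 and 2.73 on the control arrays. AACO 1, AACO 2 and control 3 were high and the other 3 hearts low, so the groups overlapped. The difference was 0.13 ± 0.24 (SE), with a 95% interval of -0.44 to 0.71 and an adjusted p of 0.738 by limma. The second downstream probe, printed above, gave the same 3 high and 3 low hearts, at 2.35, 2.30 and 1.76 against 1.93, 1.87 and 2.44, and a difference of 0.06 (95% interval -0.48 to 0.60).

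The upstream Vwf probe, 8059 bases nearer the start of the transcript by the array's annotation, behaved otherwise. Its level was -3.10, -3.46 and -3.47 on the AACO arrays and -5.67, -5.13 and -5.34 on the control arrays, without overlap. In the fit over 20112 single probes, where 11.1% were called and 6.29% called higher, its difference was 2.04 ± 0.18 (SE), with an adjusted p of 0.00598 by limma. The single spots read 169 to 228 in processed signal on the AACO arrays and 20.7 to 56.9 on the control arrays, where 4 of 6 spots were well above background. It was called in 19 of 20 alternatives. After normexp background correction the difference was 0.82 and was called, and with the level of Myl7 and Sln as a covariate it was 1.95 and was not called (adjusted p 0.145). Leaving out each array in turn gave 1.89 to 2.16, with adjusted p from 0.013 to 0.0425. The mismatch between the upstream probe's difference and that of the probe of highest signal was set against other genes after the values had been seen. Vwf had the largest mismatch, 1.91, of 25 transcripts with probes at least 5000 bases apart, followed by Fat4 with 0.87, and 7 of 2027 transcripts with probes any distance apart exceeded it.

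The repeat run in the upstream Vwf probe, ACACACACACAC, occurred in 15 other non-control probes, a set chosen after values were seen. All 16 were well above background on all arrays. Of the 15 others, 15 were higher in mean with AACO, 13 were called higher and none lower, against 6.29% called higher over all probes, and their median difference was 1.07 against 0.04. They included probes named for Cx3cr1 (1.28), Pura (1.30), Rassf2 (1.09) and Plcb4, which had the smallest difference (0.15). With the shorter run ACACACAC, 47 other probes had a median of 0.54, with 18 called higher and 2 lower. The opposite-strand run GTGTGTGTGTGT was held by 13 probes, with a median of 0.02 and none called; 20112 probes were searched on the printed strand. The number called fell to 1 without AACO replicate 1, without AACO replicate 2 or without control replicate 3, to 3 without control replicate 1 or 2 and to 0 with the level of Myl7 and Sln as a covariate, while the median stayed between 0.85 and 1.56. The part of the repeat in the upstream Vwf value was not tested.

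**Figure D3:**
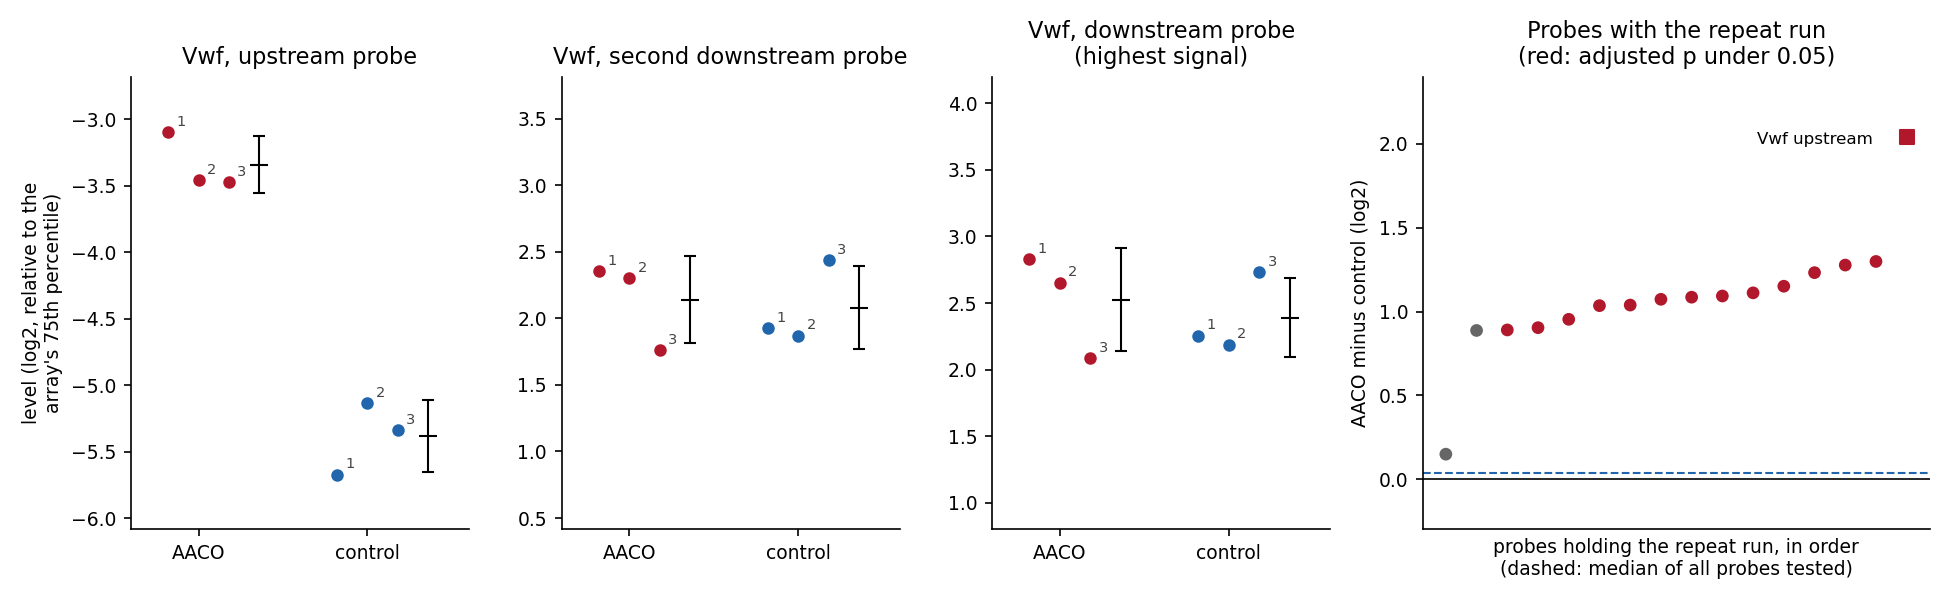
The first 3 panels give the level (log2, relative to the array's 75th percentile) of the 3 Vwf probes on each array, over equal heights of axis, with the mean ± SD (n = 3) in black. The last panel gives AACO minus control (log2) for the 16 probes with the repeat run, red where the adjusted p was under 0.05; only the upstream probe separates the groups, by 2.04, and all 16 points lie above 0.

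Among 17 other genes of Weibel-Palade bodies and haemostasis, 5 fell and none rose, with a list median of -0.23 (0.25 without scaling). Among them were Plat, tissue plasminogen activator (-0.88 ± 0.10 SE, adjusted p 0.00974), the anticoagulant receptor Thbd (-0.90, adjusted p 0.0155), and the annexin partners Anxa2 (-0.51) and S100a10 (-0.49). Plat stood at 1.73, 1.69 and 1.79 on the AACO arrays and 2.75, 2.57 and 2.51 on the control arrays. Thbd stood at 0.86, 1.19 and 1.29 against 1.97, 2.04 and 2.04. None of these 4 called genes overlapped between groups, where 15.9% of all genes were lower without overlap. Platelet markers, which share several of these products, were called lower for 2 of 5 tested, with Pf4 at -0.97 (adjusted p 0.0119), and summed to 2.21 to 2.43 with AACO and 2.92 to 3.28 in control. Their part was not tested.

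Icam1, the inducible ligand of leukocyte beta-2 integrins, stood at -1.09, -1.08 and -1.51 on the AACO arrays and -1.28, -1.22 and -0.38 on the control arrays (rn4 chr8:20051730-20051789). Control 3 was the highest heart and AACO 3 the lowest, with the remaining 4 hearts between -1.28 and -1.08. The difference of -0.27 ± 0.27 (SE) had a 95% interval of -0.92 to 0.38 and an adjusted p of 0.531 by limma. Without control replicate 3 it was 0.02.

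Vcam1 encodes the ligand of an integrin that monocytes and lymphocytes use to stick to the vessel wall. Its level was -1.37, -0.98 and -2.54 on the AACO arrays and -2.81, -2.31 and -1.18 on the control arrays (rn4 chr2:212277695-212277754, minus strand). AACO 1, AACO 2 and control 3 were high, and AACO 3, control 1 and control 2 low, so each group held both kinds of heart. From the lowest heart to the highest was 3.55-fold. The 10 spots of this probe differed within an array by an SD of 0.05 to 0.15, which covers spot-to-spot error only and not labelling or hybridization. The difference between groups was 0.47 ± 0.54 (SE), with a 95% interval of -0.83 to 1.76 and an adjusted p of 0.592 by limma. Without scaling it was 0.95 and was called (adjusted p 0.0324).

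The same 3 hearts were thus high for Vcam1 and for both downstream Vwf probes. Some markers of atrial muscle differed between the hearts as well. Myl7, the atrial myosin light chain, stood at 4.83, 6.26 and -1.06 on the AACO arrays and -2.31, -2.91 and -1.51 on the control arrays, and Sln, atrial sarcolipin, at 1.39, 3.85 and -0.41 against -1.71, -0.42 and -0.59. Both were high on AACO 1 and AACO 2 and not on control 3. The other atrial markers did not share this order. Nppa, the atrial natriuretic peptide, was lowest on AACO 1 and highest on control 3, at 2.80, 5.49 and 5.86 against 4.95, 5.25 and 6.99 (difference -1.01). Myl4 differed by -0.0020 and Stard10 by 0.51. With the mean level of Myl7 and Sln as a covariate the difference of Vcam1 was -0.80 and that of Vwf -0.36, and no gene was called in that fit. Myl7 and Sln were each higher on every AACO array than on every control array. That fit therefore cannot separate the covariate from treatment, and the part of atrial muscle was not tested. Of the 5 atrial markers tested, none was called, and their summed level, carried mainly by Myl4 and Nppa, was 152 to 245 with AACO and 145 to 227 in control.

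Sele encodes E-selectin, which activated endothelium shows to rolling leukocytes. Its kept probe (rn4 chr13:79822442-79822501), on 1 spot per array, stood at -3.86, -4.05 and -3.82 with AACO and -4.10, -4.28 and -3.51 in control. The control hearts enclosed all AACO hearts. The difference was 0.06 ± 0.21 (SE), with a 95% interval of -0.45 to 0.56 and an adjusted p of 0.88 by limma. The second Sele probe was well above background on 1 of 6 spots in each group and was not kept.

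Selp encodes P-selectin, held in Weibel-Palade bodies and in platelet granules. Its first probe stood at -4.63, -4.71 and -7.23 on the AACO arrays and -6.78, -4.60 and -4.95 on the control arrays. It was well above background on 2 of 3 arrays in each group. AACO 3 and control 1 were the dim ones, at a mean processed signal of 14.2 and 16.0, while the other 4 arrays read 43.4 to 82.8. The hearts thus fell into 4 bright and 2 dim, with a dim heart in each group. The difference was -0.08 with a 95% interval of -2.17 to 2.01, the widest of the members, and an adjusted p of 0.96 by limma. It was 0.77 without AACO replicate 3.

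The second Selp probe, which differs from the first in the letters printed above, did not follow this order. It stood at -6.96, -6.97 and -7.00 with AACO and -6.73, -6.52 and -6.82 in control, a difference of -0.29 (adjusted p 0.138 in the fit over single probes). Its 2 spots disagreed on every array, with 4.12 to 5.87 in processed signal on the lower spot and 24.1 to 63.0 on the higher, so its mean rests on a dim and a bright spot.

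Junction and other adhesion molecules of endothelium gave 2 lower and none higher of 19 tested, with a median of -0.07. Besides Icam2 it was Pvr, a nectin-like adhesion receptor (-0.81, adjusted p 0.0365). Of 13 leukocyte ligands of the adhesion molecules, Selplg, the ligand of P-selectin, fell (-0.79, adjusted p 0.0222). Itgam, the alpha chain of a beta-2 integrin that binds ICAM-1, just missed the threshold, at -0.61 with an adjusted p of 0.0501. Selplg stood at -5.97, -6.02 and -5.60 with AACO and -5.09, -5.12 and -5.00 in control. These levels were dim, near those of the upstream Vwf probe on the control arrays (-5.67, -5.13 and -5.34). The fall was called in 13 of 20 alternatives.

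The NF-kappaB pathway and genes of endothelial activation gave 2 lower and none higher of 19 tested, and 14 were lower in mean. Ccl2, a chemokine that draws monocytes, fell by 1.41 on the log2 scale (adjusted p 0.0165 by limma) and stood at -1.86, -2.40 and -2.35 with AACO and -1.05, -0.90 and -0.43 in control. Cx3cl1, fractalkine, a chemokine anchored on endothelium, fell by 0.64 (adjusted p 0.0375). Neither called gene overlapped between groups, where 15.9% of all genes were lower without overlap. The list median was -0.25, and 0.24 against 0.52 for all genes without scaling.

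Over these related lists 141 of 158 genes were tested, 19 were called lower (13.5%) and 2 higher (1.42%), against 4.94% and 6.32% of all genes. Their median was -0.16. The lists were chosen with earlier results of these data known, so the contrast with all genes gives no independent support. All 21 called genes kept their direction in all 20 alternatives. No call survived without AACO replicate 2, and 5 of 21 were called without AACO replicate 1, 5 without control replicate 3, 10 without control replicate 1, 12 without control replicate 2 and 17 without AACO replicate 3.

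**Figure D4:**
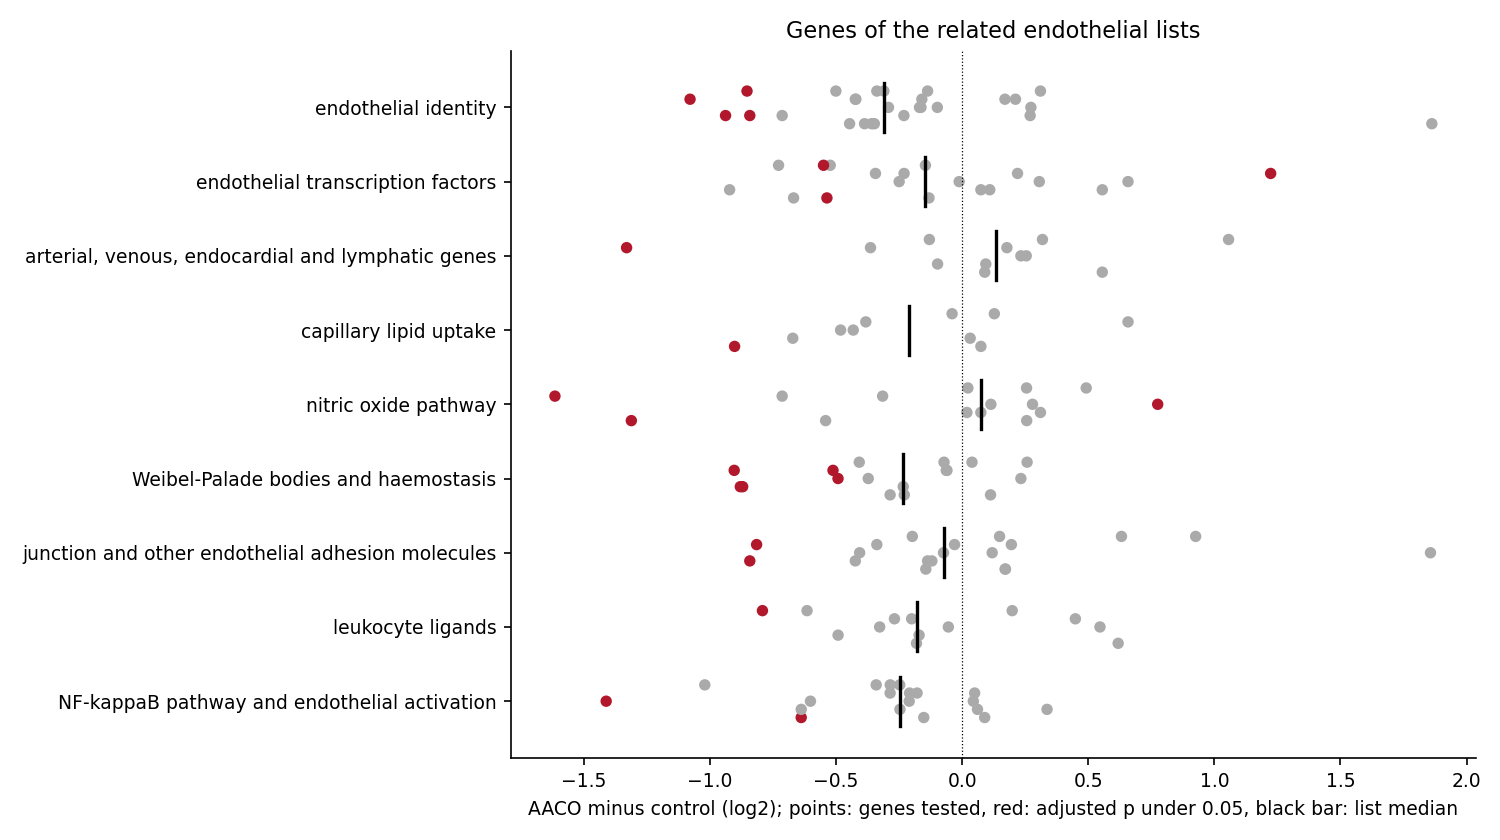
AACO minus control (log2) for each tested gene of the 9 related lists, red where the adjusted p was under 0.05, with the list median as a black bar. The lists were chosen with earlier results of these data known. Calls lie mostly to the left, 19 lower against 2 higher, and list medians run from -0.31 for endothelial identity to 0.14 for arterial, venous, endocardial and lymphatic genes; without scaling all 9 medians lie above 0.

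Other cell types of the heart were read from marker lists on the same arrays. Neutrophil markers were lower for 1 of 4 tested (Retnlg, -1.60) and summed to 0.36 to 0.91 with AACO and 1.14 to 1.72 in control. Lymphocyte markers were called lower for 1 of 5 (Cd4, -1.05) and summed to 0.49 to 0.55 with AACO and 0.36 to 0.69 in control. Only 2 of these 5 were lower in mean, and their median was 0.25. Red cell markers were lower for 2 of 4 (Alas2, -1.33, and Hemgn, -1.67), with summed levels of 53.9 to 70.9 and 49.95 to 77.1. Smooth muscle markers were called higher for 1 of 6 (Smtn, 0.57), with sums of 63.2 to 75.8 and 57.6 to 67.9. None of these 6 was lower in mean, and their median was 0.61. No call was made among 6 pericyte markers (smallest p for Rgs5, -0.34), 8 fibroblast markers (Dcn, -0.57), 8 cardiomyocyte markers (Actc1, -0.23) or the 1 mesothelial marker tested (Wt1, -0.33). Lymphatic markers were lower for 1 of 6, Lyve1. Lyve1, Selplg, Itgam and Ccl2 are also made by macrophages, whose markers' levels are given with Fabp4, and their part in those results was not tested.

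The genes whose levels followed each member most closely over the 6 arrays are given as a description, with Pearson's r and no p. The 6 arrays share 2 slides, and all tested genes with a name other than a provisional one were searched. For Pecam1 they were Vegfd (0.994) and Xpa (0.993), for Cdh5 Riox1 (0.997) and Txnrd1 (0.997), and for Emcn Ddit3 (0.984) and Amotl2 (0.979). Vwf was followed by Aldh1l1 (0.997) and Foxc1 (0.994), Fabp4 by Zmiz1 (0.999) and Slc39a14 (0.996), and Nos3 by Qars1 (0.985) and Prdx5 (0.977). Among the adhesion genes, Icam1 was followed by Nadsyn1 (0.978) and Dmbt1 (0.974), Vcam1 by Lrrc17 (0.988) and Cilk1 (0.983), Sele by Tmx1 (0.988) and Srp68 (0.973), and Selp by Cd46 (0.996) and Helb (0.988). No member appeared among another member's closest genes.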

How the data were processed

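Total RNA of whole heart (mirVana kit) was labelled with Cy3 from 0.2 ug per 1-colour Agilent array, per the labels' protocols. Per the file headers, Agilent Feature Extraction 10.7.1.1 read the arrays, and the intensity used here is the deposited processed signal, from which background had been taken but which had no scaling across arrays. The deposited marks for outliers and for spots well above background were used as given. The deposited series matrix holds log2 values with column medians of 6.79, which correlated across probes with the scanner values at r of 0.998 or more; its exact normalization stays unknown, and it served as an alternative.

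Control spots and outlier-marked spots were left out, spots of a probe were averaged on the log2 scale, and each array's 75th percentile was subtracted. Of 30367 non-control probes, 20112 passed a filter, which asked for a value on every array and a signal well above background on 3 of them or more; a probe counted as well above background where at least 50% of its spots were. The probe of highest mean signal stood for its gene. Symbols were updated through accessions for 18005 probes. Groups came from the labels' treatment field. AACO was compared with control by limma 3.58.1 in R 4.3.3 (two-sided, Benjamini-Hochberg over 17536 genes, called at an adjusted p under 0.05), and the fit was tested on simulated data. The precision is limited by 3 arrays per group.

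The members and the lists of related genes and markers were chosen with earlier results of these data known. Named in the text are all members, every called gene and the 2 genes of smallest p of each related list, the gene of smallest p of each marker list with Myl7 and Sln, and each member's 2 most correlated genes; Myl2, Kdr, Tek, Plvap, Hemgn, the other atrial and adipocyte markers, the other lymphatic markers and the genes with repeat-run probes were added after their values were seen. A called gene of the haemostasis list is not reported here. Alternatives changed background correction, scaling, the filter, the choice of probe, outlier marks, the variance model and single arrays; comparisons by probe position and repeat run were added after seeing the data. Probe positions are those of the array files.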

Additional observations from a re-analysis of the deposited data

How the results depend on the processing

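Over all genes, 1975 were called, 5725 without scaling, 0 with a covariate (mean level of Myl7 and Sln), and 256 to 2162 when 1 array was left out. The count of members called lower, 1, was 0 after median, no or spike-in scaling, without the filter on dim probes, with that covariate and in each fit that left out an array (0 to 0); the count called higher was 1 without scaling (Vcam1) and otherwise 0. The causes were not tested. Without scaling the sign turned for Pecam1 (0.36), Cdh5 (0.16), Emcn (0.28), Nos3 (0.33), Icam1 (0.22) and Selp (0.40), all below the median of all genes there, 0.52. With the covariate it turned for Vwf (-0.36), its second downstream probe (-0.40), Nos3 (0.077) and Vcam1 (-0.80), and after normexp for Sele (-0.068). The covariate was higher on every AACO array than on every control array, so its fit cannot separate it from treatment. Leaving out 1 array turned some members whose differences were not called. The range over the 6 such fits was -0.020 to 0.35 for Vwf, -0.047 to 0.25 for its second downstream probe, -0.43 to 0.021 for Icam1, -0.10 to 0.28 for Sele and -0.75 to 0.77 for Selp. Fabp4, the upstream Vwf probe and the 21 called genes of the related lists kept their direction in all 20 alternatives; of those 21, 13 were called with spike-in scaling, 6 without scaling and 0 with the covariate. No paired analysis was possible because the labels give no replicate numbers shared between the groups. Dim signal limits the second Sele probe and both Selp probes, which were not well above background on every array. It also limits the upstream Vwf probe in control, where 4 of 6 spots were well above background, and Selplg, whose levels were near those of that probe in control.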
